A study of Mus musculus with 6 samples.

Results

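The genes described here make cholesterol and fatty acids, take up, bind and store lipid, or start the fat cell programme. They are 36 mouse genes listed by symbol, and all 36 were found, through their Ensembl identifiers, among the 57180 identified rows of the deposited count table. The cells were grown out of the calvaria, the roof of the skull, and kept in an osteogenic medium of MEM alpha with 10% fetal bovine serum, ascorbate and 4 mM β-glycerophosphate. The 3 wt libraries came from C57BL/6 cells. The 3 gld libraries, labelled FasL KO, came from cells of the strain B6Smn.C3-Faslgld/J, which is homozygous for the gld mutation of Fasl, the gene of Fas ligand. Both groups had the same medium, with the lipids of its serum. Per the series' design text they ran in parallel with gld cells given Fas ligand at day 14 for 72 h, which are not analysed here. The gld change is a point mutation carried by every cell of the animal, and alleles linked to Fasl in this congenic strain cannot be told apart from it. The labels state no age, and no number of animals or cultures behind each group, so a p-value here weighs a difference against the spread among libraries, which may be technical.

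Cells hold their cholesterol within narrow limits through the SREBP transcription factors. When sterol in the endoplasmic reticulum is low, SCAP escorts SREBP to the Golgi, where it is cut and released to switch on the enzymes of the mevalonate and sterol pathway. INSIG proteins hold the complex back when sterol is plentiful, and LXR receptors answer to surplus sterol by inducing export through ABCA1. Osteoblasts and adipocytes share a mesenchymal precursor, and C/EBPβ followed by PPARγ and C/EBPα drives that precursor towards fat.

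The libraries held 2011173 to 3105322 counts in wt and 4048258 to 5245546 in gld, so every gld library was deeper than every wt library. Osteoblast and fibroblast genes were counted in all libraries, such as Col1a1 and Lum, while the osteoblast marker Dlx5 was listed at 0 and Runx2 had 7 to 33 counts a library. Of 12 adipocyte markers 6 were listed at 0 in every library (Pparg, Cebpa, Lep, Cfd, Plin1 and Cidec), Adipoq had 1 count in all, and Lpl was the only adipocyte marker with more than 1 count in wt. Car3, a carbonic anhydrase of fat and muscle, had 0 counts in the wt libraries and 33, 59 and 124 in the gld libraries, at least 46.8-fold higher against a floor of 3 counts over the wt group. Like several markers below, Car3 passed the low-count filter through the gld libraries alone and so had to differ. All 5 tested markers of myofibroblasts and smooth muscle were lower in gld. Of 5 tested osteoblast markers 3 were higher (Col1a1, Col1a2 and Ibsp) and Alpl, the alkaline phosphatase of mineralising cells, was lower, by a log2 fold change of −2.20. Of these, Ibsp passed the low-count filter through the gld libraries alone and so had to differ. Of 7 tested fibroblast markers 3 were higher (Lum, Fap and Col3a1) and 2 lower (Thy1, −1.46, and Pdpn, −0.65). The part of cell makeup in the lipid gene results was not tested. Of 19 macrophage markers 9 were higher in gld, 1 (Cd14) was lower, 2 were too low to test and 7 were listed at 0 in every library (Csf1r, Adgre1, Tyrobp, Fcer1g, Ctss, Aif1 and Cx3cr1). Among the higher ones Cd68, C1qa, C1qb, C1qc, Laptm5, Mrc1 and Marco passed the low-count filter through the gld libraries alone and so had to differ. A marker listed at 0 may still be expressed, as set out below for transcript ends. The summed level of the macrophage markers was 256 to 440.4 CPM in wt and 2333 to 6472 CPM in gld, highest in gld 3, with Cd14 holding most of the wt sum and Lyz2 most of the gld sum. CPM here are read counts scaled to a common library total with edgeR's TMM factors, without division by gene length. Sums over genes, the parts of single genes in them and ratios of gene pairs describe reads, not how strongly different genes are expressed.

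Not every one of the 36 genes could be measured: 9 members were listed at 0 in every library, 5 had counts but too few to test, and 22 were tested. Of the 22, edgeR's quasi-likelihood test put 5 higher and 5 lower in gld at a Benjamini-Hochberg adjusted p of 0.05 over all genes, beside 17.4% of all 8692 genes tested (9.74% higher and 7.69% lower). That is 45.5% of the tested members, and their median log2 fold change was 0.18, beside 0.02 for all genes tested. Groups did not overlap in 14 of the 22, or 63.6%, beside 33.3% of all genes tested. The members were chosen with earlier results of these data known and were not tested as a set, so these shares are descriptions only. Fdps and Fabp5 passed the low-count filter through the gld libraries alone and so had to differ. The members moved in both directions within each role except the adipogenic factors, where Cebpb alone was tested.

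**Figure D1:**
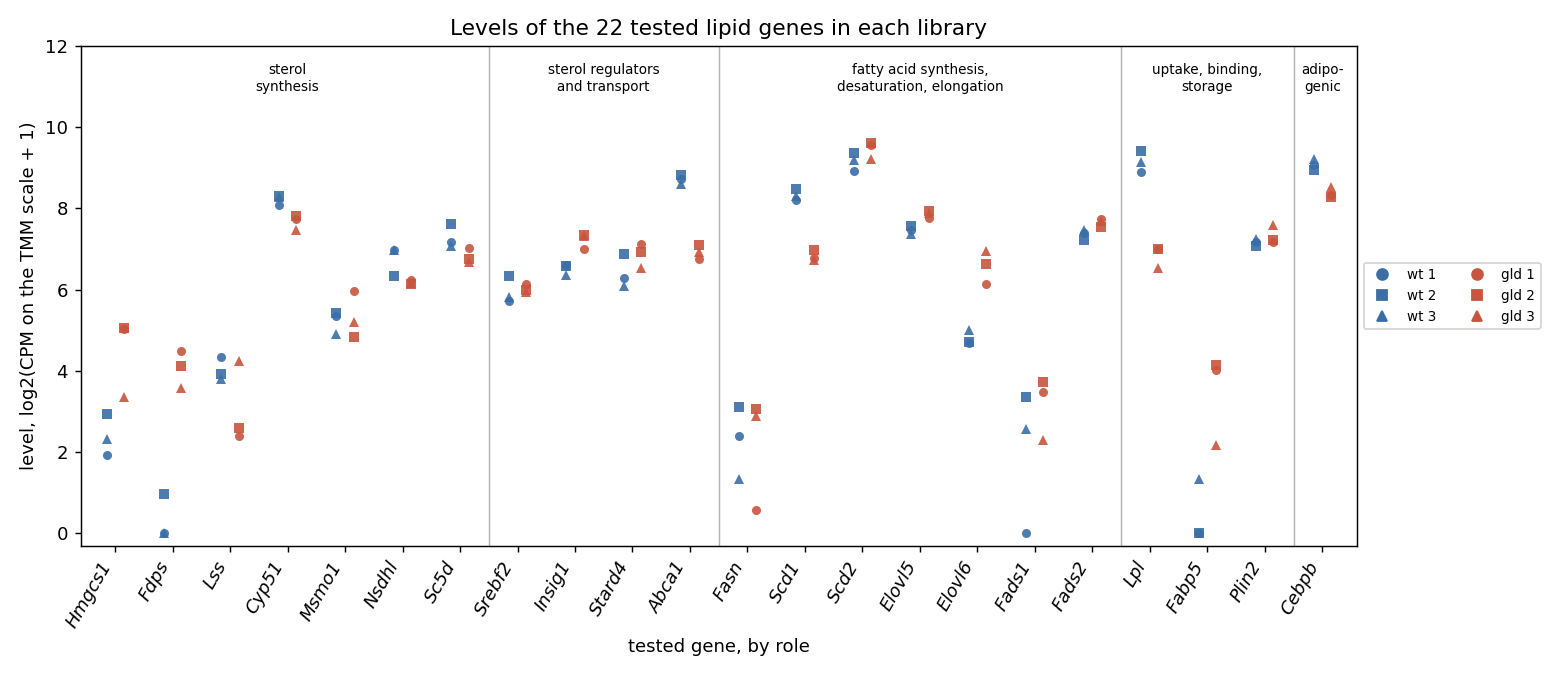
Level of each tested gene in each library, as log2(CPM + 1) on the TMM scale, by role; blue marks are wt and red marks gld, with circles, squares and triangles for libraries 1, 2 and 3. Lpl, Abca1 and Scd1 lie lower in all 3 gld libraries, Elovl6 and Insig1 lie higher, and Fasn, Fads1 and Msmo1 overlap.

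Whether a gene was counted at all went with its annotated 3′ end. These libraries read the ends of transcripts, and an end was called single where at least 99% of the last 300 exonic bases of the gene's principal transcript lie in 1 annotated transcript. Of 17 members with a single end 16 were tested, 1 (Idi1) was listed at 0, and the median was 3298 counts over the 6 libraries. Of 19 members with a shared end 6 were tested, 8 were listed at 0 (Mvk, Mvd, Fdft1, Srebf1, Apoe, Acly, Pparg and Cebpa), and the median was 15 counts. Among protein-coding genes as a whole, 38.0% of the 11207 single-end genes and 57.3% of the 10585 shared-end genes were at 0. A gene at 0 in this table may still be expressed. Shared ends also occur in the markers Dlx5, Runx2, Pparg, Cebpa, Cfd, Cidec and all macrophage markers at 0 but Csf1r. All 5 lower members have a single end, whereas Hmgcs1, Fdps and Fabp5 among the 5 higher members have a shared end, and the part of the shared ends in those results was not tested.

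Among the 13 enzymes of sterol synthesis, Hmgcs1 and Fdps were higher in gld, Cyp51 was lower, 4 were tested without a call and 6 were not tested. Hmgcs1 (chr13:119690379-119708260, plus strand), which makes the HMG-CoA from which mevalonate is formed, stood at 2.82, 6.64 and 3.99 CPM in wt 1, 2 and 3 and at 31.7, 32.4 and 9.24 CPM in gld 1, 2 and 3. The groups did not overlap, but gld 3 lay far nearer to wt than the other gld libraries. Hmgcs1 rose by 2.41 ± 0.57 log2 units (SE; edgeR adjusted p = 0.00751), and limma-voom did not call it (adjusted p = 0.123). In this mixed culture fewer cells of a type and less RNA per cell cannot be told apart, for this and every later gene.

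Fdps (chr3:89093588-89101959, minus strand), which joins isoprene units into farnesyl pyrophosphate, had 0, 3 and 0 counts in the wt libraries and 86, 62 and 53 in the gld libraries. Nearly every read lay in gld, where the level was 16.2 ± 5.29 CPM (SD, n = 3). The ratio of pooled levels, gld over wt, was 45.2 (95% exact counting interval 15.2 to 221), and the edgeR adjusted p was 0.000717. The fitted log2 fold change of 5.42 rests on the 3 reads of wt 2, and was 8.87 without wt 2 and 4.81 without wt 3. Intervals of this kind cover counting error only, and the labels mention no molecular identifiers.

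Cyp51 (chr5:4081145-4104746, minus strand), the demethylase that acts on lanosterol, stood at 269.7, 316 and 309 CPM in the wt libraries and at 213, 223 and 175 CPM in the gld libraries. Every gld library lay under every wt library. Cyp51 fell by 0.55 ± 0.14 log2 units (SE; edgeR adjusted p = 0.0118), and the call was lost without wt 3 (adjusted p = 0.0590). Nsdhl, which works on the sterol ring after Cyp51, stood at 125, 80.3 and 125 CPM in the wt libraries and 74.8, 69.9 and 71.0 CPM in the gld libraries. Its groups did not overlap either, with a log2 fold change of −0.61 ± 0.20 that did not pass (edgeR adjusted p = 0.0545), and DESeq2 called it (adjusted p = 0.0401). Sc5d, a desaturase of the last steps, had 144, 197 and 134 CPM in the wt libraries and 129, 107 and 102 CPM in the gld libraries, again without overlap. Its log2 fold change was −0.49 ± 0.18 (edgeR adjusted p = 0.0863). With library sizes as the only scaling, the median of all genes was −0.14 in place of 0.02, 720 genes were higher and 975 lower, and Nsdhl and Sc5d were called lower as well, which made 7 members lower (edgeR adjusted p = 0.0171 and 0.0201).

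The other sterol enzymes did not separate the groups. Lss, the cyclase that forms lanosterol, had 19.3, 14.2 and 12.9 CPM in the wt libraries and 4.24, 5.01 and 18.1 CPM in the gld libraries, where gld 3 stood at the wt level and the other gld libraries below it (log2 fold change −0.74 ± 0.58, edgeR adjusted p = 0.474). Msmo1, a methyl sterol oxidase, had 39.9, 42.0 and 29.2 CPM in the wt libraries and 61.6, 27.4 and 35.7 CPM in the gld libraries (0.17 ± 0.32, edgeR adjusted p = 0.811). Sqle, the squalene epoxidase, had 0, 1 and 6 counts in the wt libraries and 6, 12 and 18 in the gld libraries and was too low to test. Dhcr7, the enzyme of the last reduction, had 2 counts, both in gld 2. Mvk, Mvd and Idi1, which carry mevalonate on to isoprene units, and Fdft1, which forms squalene, were listed at 0. The summed level of the 13 enzymes was 601, 657 and 616 CPM in the wt libraries and 538, 485 and 426 CPM in the gld libraries, a sum made up mostly of Cyp51, Sc5d and Nsdhl.

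Proximal promoters of 3 members are shown because these members are textbook targets of SREBP (Hmgcs1 and Insig1, higher in gld) or of LXR (Abca1, lower in gld). Letters run 5′ to 3′ on the strand of the gene, from 250 bases before the RefSeq start site in GRCm38.p6, and stop before any base that GENCODE M21 places in the gene. Capitals mark the letters of 3 motifs searched on both strands: TCACNCCAC, a core of sterol regulatory elements; CCAAT, the site of NF-Y, read as ATTGG on the other strand; and CACGTG, the palindromic E-box. The 3 motifs do not overlap in the stretches shown.
Hmgcs1, chr13:119690101-119690350, plus strand: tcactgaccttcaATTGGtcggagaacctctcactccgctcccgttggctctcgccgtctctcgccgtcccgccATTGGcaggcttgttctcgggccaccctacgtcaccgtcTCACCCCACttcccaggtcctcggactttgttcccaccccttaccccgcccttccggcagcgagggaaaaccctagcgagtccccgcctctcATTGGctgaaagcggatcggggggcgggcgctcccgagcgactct
Insig1, chr5:28071162-28071362, plus strand: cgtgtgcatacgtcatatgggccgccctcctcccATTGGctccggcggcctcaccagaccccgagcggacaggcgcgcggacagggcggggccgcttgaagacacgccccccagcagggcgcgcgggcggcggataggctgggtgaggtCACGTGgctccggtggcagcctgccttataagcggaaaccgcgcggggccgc
Abca1, chr4:53159896-53160145, minus strand: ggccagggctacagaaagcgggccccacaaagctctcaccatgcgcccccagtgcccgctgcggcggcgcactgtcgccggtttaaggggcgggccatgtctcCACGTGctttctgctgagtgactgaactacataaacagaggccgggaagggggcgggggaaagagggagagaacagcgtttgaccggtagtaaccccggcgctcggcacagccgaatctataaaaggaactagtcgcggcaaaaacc
Hmgcs1 held the sterol element letters at base −137 from its start and the CCAAT letters at −237, −176 and −45, Insig1 held CCAAT letters at −216 and an E-box at −101, and Abca1 held an E-box at −147. RefSeq windows of 300 bases (250 before and 50 after a start) were found for 26 members, 34 windows in all. CCAAT letters lay in 10 of the 12 windows of sterol enzymes and in at least 1 window of each of the 10 enzymes matched, whether these rose (Hmgcs1), fell (Cyp51) or were listed at 0 (Mvk, Mvd, Idi1), and in 37.4% of all 32851 windows. TCACNCCAC lay in 1 of the 34 windows, that of Hmgcs1, and in 1.24% of all windows, and CACGTG in 6 of the 34 and in 7.15% of all. A match of letters is a description, not a site of binding.

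The genes that sense or move sterol also split. Abca1 (chr4:53030787-53159895, minus strand), the exporter that loads cellular cholesterol onto apolipoproteins, stood at 423, 451 and 386 CPM in the wt libraries and at 106, 136 and 121 CPM in the gld libraries. The wt and gld values lie far apart beside their spread. Abca1 fell by 1.80 ± 0.14 log2 units (SE), or 3.47-fold by the means (edgeR adjusted p = 3.45e-07), rank 114 by p among the 8692 genes. Insig1 (chr5:28071363-28078662, plus strand), which retains SCAP and SREBP in the endoplasmic reticulum and is itself an SREBP target, stood at 97.3, 94.2 and 80.8 CPM in the wt libraries and at 128, 160.3 and 159 CPM in the gld libraries. All gld libraries were above all wt libraries. Insig1 rose by 0.72 ± 0.17 log2 units (SE; edgeR adjusted p = 0.0079), and the call was lost without gld 2 (adjusted p = 0.0511).

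Srebf2, the SREBP that governs sterol genes, gave no difference that could be told from the spread. It had 51.7, 79.4 and 55.3 CPM in the wt libraries and 69.8, 63.0 and 60.4 CPM in the gld libraries (log2 fold change 0.05 ± 0.22, edgeR adjusted p = 0.937). Its paralog Srebf1, which leans towards fatty acid genes, was listed at 0. Stard4, a carrier of sterol between membranes, had 76.6, 118 and 67.2 CPM in the wt libraries and 138, 121 and 92.0 CPM in the gld libraries, with wt 2 inside the gld range (0.42 ± 0.23, edgeR adjusted p = 0.266). Apoe, the apolipoprotein of macrophages and many other cells, was listed at 0 in all libraries, has a shared end and may still be expressed.

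**Figure D2:**
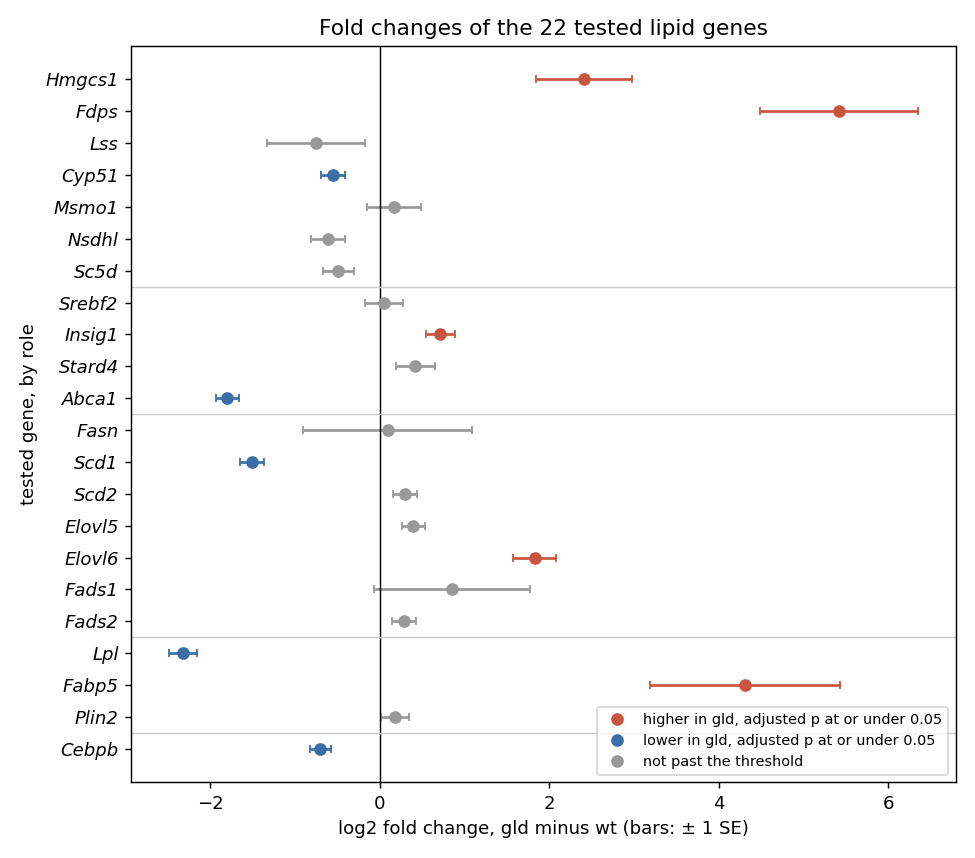
Log2 fold change, gld minus wt, of the 22 tested genes by role, with bars of 1 SE; red and blue points passed an edgeR adjusted p of 0.05 and grey points did not. The decreases of Lpl (−2.32), Abca1 (−1.80) and Scd1 (−1.51) have short bars, and the increases of Fdps and Fabp5, with few wt reads, have long ones.

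In fatty acid synthesis, the stearoyl-CoA desaturase gene Scd1 was lower in gld and its paralog Scd2 was not called. These enzymes put the first double bond into saturated fatty acids, and Scd1 and Scd2 lie near each other on chromosome 19 (Scd1 at chr19:44394455-44407879 on the minus strand, Scd2 at chr19:44293674-44306864 on the plus strand). Scd1 stood at 295, 353 and 315 CPM in the wt libraries and at 109, 125 and 106 CPM in the gld libraries, without overlap. It fell by 1.51 ± 0.14 log2 units (SE), or 2.84-fold by the means (edgeR adjusted p = 2.65e-06, rank 175 of all genes tested). Scd2 stood at 484.5, 661 and 585 CPM in the wt libraries and at 754, 785 and 591 CPM in the gld libraries, where gld 3 lay inside the wt range (0.30 ± 0.14, edgeR adjusted p = 0.195).

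The count of Scd2 divided by that of Scd1 needs no scaling between libraries. It was 1.64, 1.87 and 1.86 in wt and 6.93, 6.28 and 5.58 in gld, or 1.79 ± 0.13 against 6.26 ± 0.68 (SD, n = 3). The lowest gld ratio was well above the highest wt ratio. In a two-sided exact permutation test p was 0.1, the smallest that 3 against 3 libraries allow.

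The elongases that lengthen fatty acids both stood higher in gld, though only Elovl6 passed. Elovl6 (chr3:129532355-129638495, plus strand), which lengthens saturated and monounsaturated chains, had 24.9, 25.3 and 31.3 CPM in the wt libraries and 69.1, 97.6 and 124 CPM in the gld libraries. The gld libraries varied more than the wt libraries but all lay above them. Elovl6 rose by 1.83 ± 0.25 log2 units (SE), or 3.56-fold by the means (edgeR adjusted p = 0.000111). Elovl5, which acts on polyunsaturated chains, had 177, 189.7 and 163 CPM in the wt libraries and 216, 243 and 238 CPM in the gld libraries. Its groups did not overlap, its log2 fold change was 0.40 ± 0.14 (edgeR adjusted p = 0.0612), and DESeq2 called it (adjusted p = 0.0412). The ratio of Elovl6 to Elovl5 counts was 0.141, 0.133 and 0.192 in wt and 0.319, 0.402 and 0.520 in gld (exact permutation p = 0.1, two-sided).

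**Figure D3:**
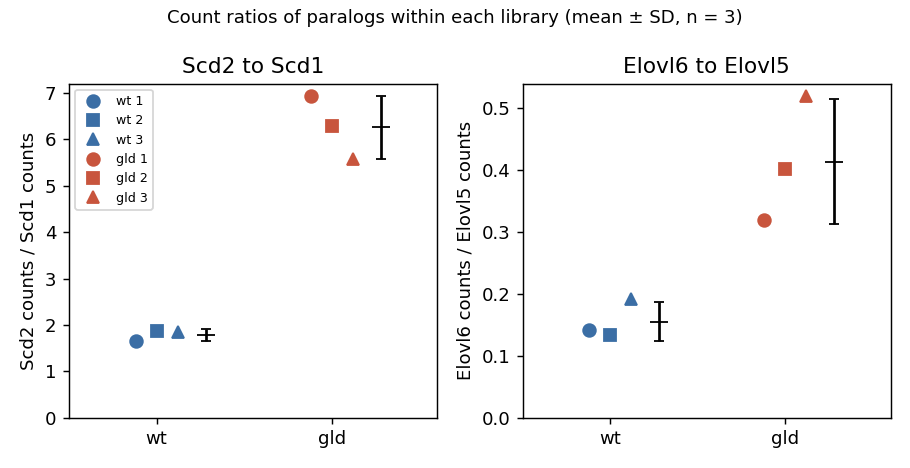
Count of Scd2 divided by that of Scd1 (left) and of Elovl6 divided by that of Elovl5 (right) within each library, with mean ± SD beside the 3 points of each group. The Scd2 to Scd1 ratio lies between 1.64 and 1.87 in wt and between 5.58 and 6.93 in gld, and neither pair's groups overlap.

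The desaturases of polyunsaturated fatty acids, neighbours on chromosome 19, were not called. Fads2 had 166, 149 and 177 CPM in the wt libraries and 213, 184 and 204 CPM in the gld libraries, all gld values being higher, with a log2 fold change of 0.29 ± 0.14 (edgeR adjusted p = 0.205). Fads1 had 0, 29 and 16 counts in the wt libraries and 41, 46 and 19 in the gld libraries (0.86 ± 0.92, edgeR adjusted p = 0.637). Fasn, the fatty acid synthase, had 9, 24 and 5 counts in the wt libraries and 2, 28 and 31 in the gld libraries, a difference that was not detectable at this depth (0.09 ± 0.99, edgeR adjusted p = 0.972). Acaca, the carboxylase that makes malonyl-CoA, had 2, 0 and 8 counts in the wt libraries and 18, 17 and 10 in the gld libraries and was too low to test. Acly, which supplies cytosolic acetyl-CoA, was listed at 0. Summed over the 9 genes, the level was 1152, 1395 and 1281 CPM in the wt libraries and 1376, 1458 and 1274 CPM in the gld libraries, and the groups overlapped.

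Among the genes of lipid uptake and storage, Lpl was lower and Fabp5 higher in gld. Lpl (chr8:68880491-68907448, plus strand), the secreted lipase that frees fatty acids from lipoprotein triglyceride, stood at 476, 679 and 567 CPM in the wt libraries and at 128, 127 and 91.6 CPM in the gld libraries. Even the lowest wt library was several times the highest gld library. Lpl was 4.98-fold lower in gld by the means, a log2 fold change of −2.32 ± 0.17 (edgeR adjusted p = 2.13e-07, rank 93 of all genes tested). Macrophages also make Lpl and Abca1, and both were lower in the libraries in which the summed macrophage markers were higher. The part of macrophages in both results was not tested.

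Plin2, which coats lipid droplets in most cells, had 142, 133 and 152 CPM in the wt libraries and 142, 149 and 193 CPM in the gld libraries, and gld 3 stood above the rest (0.18 ± 0.16, edgeR adjusted p = 0.541). Fabp5, a carrier of fatty acids in skin, macrophages and other cells, had 0, 0 and 5 counts in the wt libraries and 61, 63 and 17 in the gld libraries. All gld libraries were higher, with the lowest gld count in the deepest library. Its log2 fold change was 4.31 ± 1.12 (edgeR adjusted p = 0.0144), 8.40 without wt 3 and 3.72 without wt 2. The call was lost in limma-voom (adjusted p = 0.140) and without gld 1 (0.0703) or gld 2 (0.0892), and reads that like-named copies share with it are uncertain. The part of macrophages in the Fabp5 result was not tested; gld 3, with the highest macrophage marker sum, had the lowest Fabp5 level of the gld libraries, at 3.49 CPM against 15.2 and 16.6 CPM.

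Fabp4, the fatty acid carrier of adipocytes and macrophages, had 0, 0 and 1 counts in the wt libraries and 6, 8 and 0 in the gld libraries, a pooled ratio of 9.44 (95% exact counting interval 1.44 to 399), too few to test. Lpin1, a phosphatidate phosphatase of triglyceride synthesis, had 9, 8 and 0 counts in the wt libraries and 0, 0 and 12 in the gld libraries. Together the 5 uptake and storage genes held 622, 815 and 721 CPM in the wt libraries and 287, 295 and 291 CPM in the gld libraries, of which Lpl and Plin2 made up nearly all.

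Of the adipogenic factors Cebpb alone had counts. Cebpb (chr2:167688915-167690418, plus strand, a gene of a single exon), an early factor of fat cell formation that also serves inflammatory transcription, stood at 537, 491 and 589.5 CPM in the wt libraries and at 322, 309 and 366 CPM in the gld libraries. The groups did not overlap. Cebpb fell by 0.70 ± 0.12 log2 units (SE; edgeR adjusted p = 0.000951). Pparg and Cebpa, the factors that act after it, were listed at 0 in every library, and both have shared ends.

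**Figure D4:**
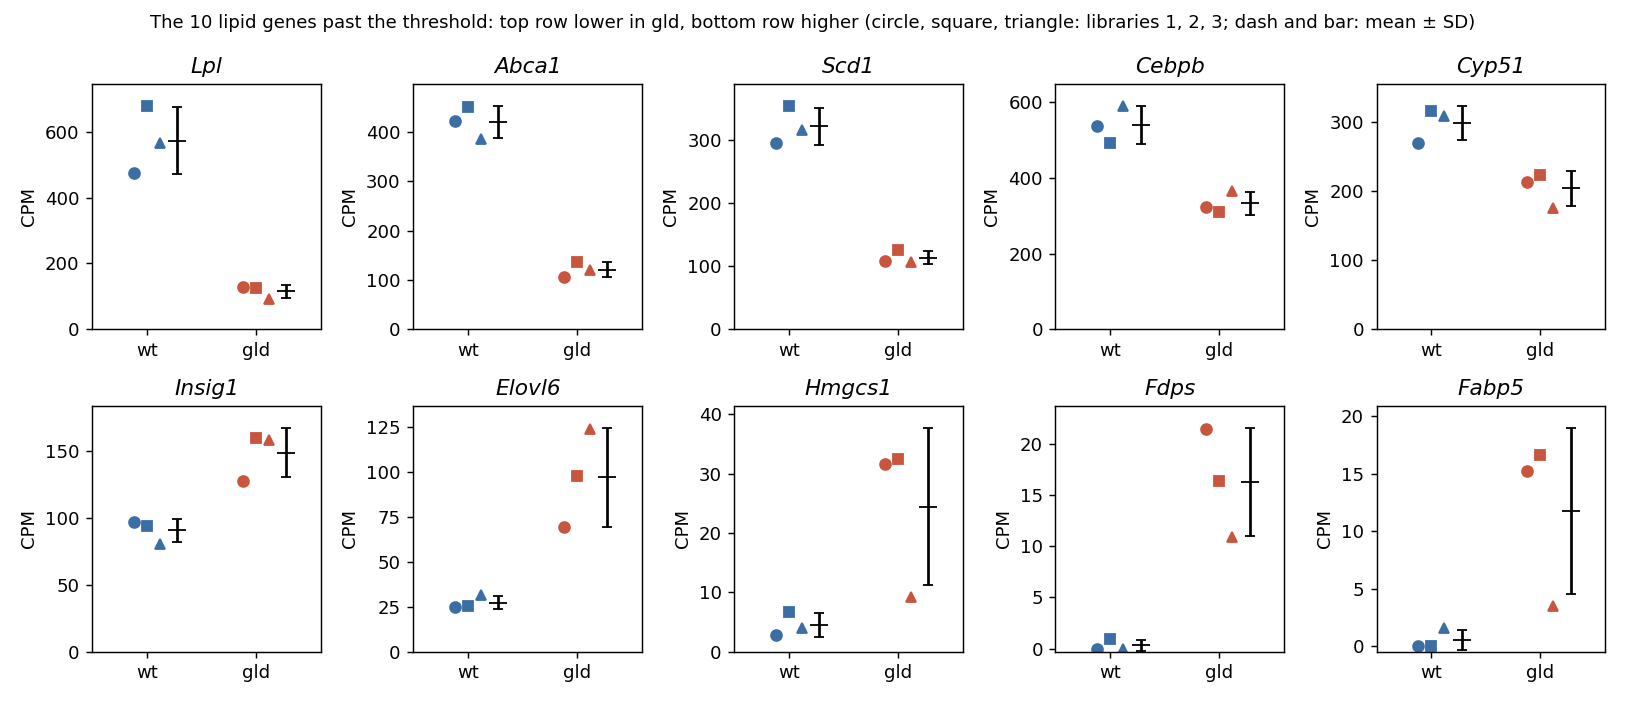
CPM in each library of the 10 genes past the threshold, lower in gld in the top row and higher in the bottom row; circles, squares and triangles are libraries 1, 2 and 3, blue for wt and red for gld, and the dash with its bar is the mean ± SD (n = 3). Lpl lies between 476 and 679 CPM in wt and between 91.6 and 128 CPM in gld, and gld 3 is the lowest gld library for Hmgcs1, Fdps and Fabp5.

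The calls of Abca1, Scd1, Elovl6, Lpl and Cebpb held under each of 12 other settings, among them leaving out any 1 library. Fdps was called under each as well, but it was tested only because of its gld counts, so this says nothing about its stability. Those of Hmgcs1, Cyp51, Insig1 and Fabp5 did not, as given beside their values.

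Further genes of the same pathways were taken from 6 lists of 152 genes in all, of which 70 could be tested, 13 were higher, 11 lower (34.3% called, beside 17.4% of all genes tested) and 43 listed at 0. In the list of other sterol synthesis and SREBP pathway genes, 14 of 20 were tested, with 3 higher and 3 lower in gld and a median log2 fold change of −0.38. The escort gene Scap fell by 0.77 ± 0.14, the mitochondrial thiolase gene Acat1 rose by 1.05 ± 0.20, and the late enzyme Hsd17b7 fell by 0.65 ± 0.18 (edgeR adjusted p = 0.00103, 0.00182 and 0.0222), the last not without wt 2 or gld 3 (0.118 and 0.0734). Hsd17b7 was named after its values were seen. Acat2, another thiolase gene of the list, had 15 counts in all and was too low to test. A rise was thus seen for the mitochondrial enzyme's gene, and whether Acat2 changed is unknown.

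Of 25 other genes of sterol uptake, transport and efflux 13 were tested, with 1 higher and 2 lower and a median of −0.16. Ch25h, which makes 25-hydroxycholesterol, a sterol that holds SREBP back, had 76, 142 and 135 counts in the wt libraries and 631, 626 and 976 in the gld libraries. Its level was 40.7 ± 4.64 CPM in the wt libraries and 174 ± 22.9 CPM in the gld libraries (SD, n = 3), and it rose by 2.09 ± 0.19 log2 units (SE; edgeR adjusted p = 1.52e-06). Vldlr, a lipoprotein receptor, fell by 2.51 ± 0.66 and Mylip, a ligase induced through LXR that marks lipoprotein receptors for breakdown, by 0.75 ± 0.24 (edgeR adjusted p = 0.0156 and 0.0401). The call of Vldlr was lost without wt 1, wt 3 or gld 2 (0.0528, 0.114 and 0.0536), and that of Mylip without wt 2, wt 3, gld 1 or gld 3 (0.164, 0.153, 0.0848 and 0.111). Abcg1, an exporter induced through LXR, was not called (0.75 ± 0.79, edgeR adjusted p = 0.629), and the LXR genes Nr1h2 and Nr1h3 were listed at 0.

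Of 25 other genes of fatty acid synthesis and activation 9 were tested, with none higher, 1 lower and a median of 0.06. The dehydratase gene Hacd3, which serves elongation, fell by 0.55 ± 0.16 (edgeR adjusted p = 0.0273), a call lost without wt 1, wt 2, gld 1 or gld 2 (0.0764, 0.113, 0.0699 and 0.104). Of 34 other genes of uptake, triglyceride synthesis, storage and lipolysis 11 were tested, with 1 higher and 2 lower and a median of 0.08. Angptl2, a secreted relative of the lipase inhibitors, stood at 323 ± 13.3 CPM in the wt libraries and 105 ± 17.4 CPM in the gld libraries (SD, n = 3) and fell by 1.62 ± 0.15 (SE). Dgat2, which completes triglyceride, went from 80.2 ± 6.02 to 25.0 ± 5.67 CPM (SD, n = 3) and fell by 1.68 ± 0.24 (edgeR adjusted p = 2.5e-06 for Angptl2 and 0.000146 for Dgat2). G0s2, an inhibitor of adipose triglyceride lipase, rose by 1.58 ± 0.37 (edgeR adjusted p = 0.00771). Cd36, Plin1, Plin4, Cidec and Pnpla2, genes of fat uptake, droplets and lipolysis, were listed at 0.

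Of 22 other adipogenic factors and antagonists 12 were tested, with 4 higher and 2 lower and a median of 0.65. Gata3, which restrains adipogenesis, had 239, 317 and 338 counts in the wt libraries and 13, 10 and 0 in the gld libraries. Its log2 fold change was −5.80 ± 0.51, −6.45 without gld 1 and −5.16 without gld 3. Klf2, another restraint on Pparg, went from 64.5 ± 25.3 to 347 ± 32.3 CPM (SD, n = 3), a rise of 2.41 ± 0.24. Klf4, an early inducer of Cebpb, rose by 1.36 ± 0.16 and Ebf1, an adipogenic factor also used in stroma and B cells, by 1.19 ± 0.16 (largest edgeR adjusted p of these 4 genes 8.64e-05). Cebpd, the partner of Cebpb in early adipogenesis, fell by 0.48 ± 0.13 (edgeR adjusted p = 0.0158), a call lost without wt 3 or gld 3 (0.0837 and 0.0611). Ppargc1a rose by 2.65 ± 0.74 on 6, 12 and 3 counts in the wt libraries and 98, 17 and 90 in the gld libraries (edgeR adjusted p = 0.0222), a call lost without wt 1, wt 3, gld 1 or gld 3 (0.0531, 0.0867, 0.145 and 0.0762). Ebf1, Cebpd and Ppargc1a were named after their values were seen, as were Abcg1 above and Acadm and Cpt1a below.

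Of 26 fatty acid oxidation genes 11 were tested, with 4 higher and 1 lower and a median of 0.31. Etfa, which passes electrons from acyl-CoA dehydrogenases, rose by 1.09 ± 0.18, Hadh, a dehydrogenase of the β-oxidation cycle, by 0.76 ± 0.15, and Pdk4, a kinase that turns pyruvate away from oxidation, by 1.67 ± 0.34 (SE, largest edgeR adjusted p = 0.00307). Acadm, the medium-chain dehydrogenase, rose by 0.64 ± 0.19 and Cpt1a, which admits fatty acids to mitochondria, fell by 0.57 ± 0.17 (edgeR adjusted p = 0.0333 and 0.0309). Leaving out any 1 of the 6 libraries ended the call of each, with adjusted p from 0.0536 to 0.181 for Acadm and from 0.0515 to 0.142 for Cpt1a.

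**Figure D5:**
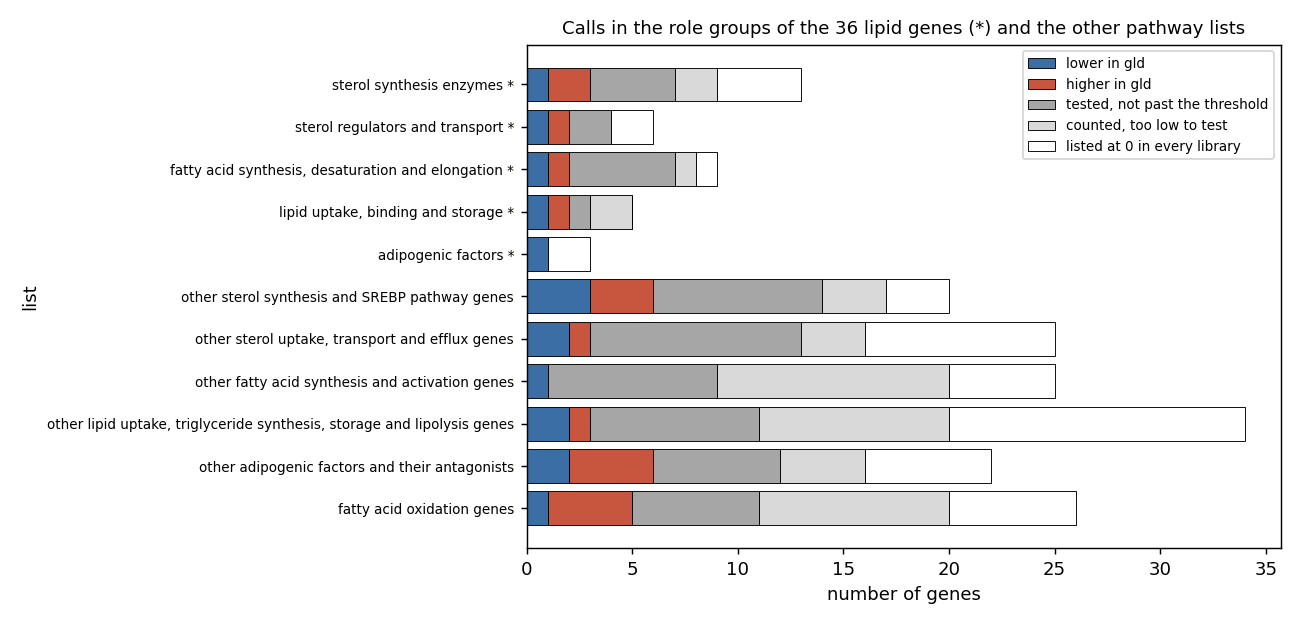
Number of genes in each role group of the 36 lipid genes (marked with a star) and in each of the 6 further pathway lists, split into lower in gld, higher in gld, tested but not past an edgeR adjusted p of 0.05, counted but too low to test, and listed at 0 in every library. Genes listed at 0 make up 9 of the 36 members and 43 of the 152 further genes.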

How the data were processed

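RNA of 3 wt and 3 gld samples was sequenced from transcript 3′ ends (QuantSeq FWD, single reads of 75 nt, per the labels' protocols). The deposited table holds unnormalized whole read counts for each Ensembl gene. Per the series' design text reads were trimmed with Cutadapt and aligned with STAR, and mm10, DESeq2, Trim Galore and FastQC are named in the submitters' processing notes. Which counter, strand setting and annotation were used is not given in the sources used here, so overlapping, antisense and near-identical genes are uncertain. The table has 57180 identified rows and 1 blank row, left out.

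Symbols came from a table of gene names and positions from GENCODE M21 (GRCm38). Genes were kept by filterByExpr (about 10 counts in 3 libraries, 15 in total), scaled by TMM and compared between gld and wt, with no covariate, by the quasi-likelihood test of edgeR (version 4.0.16, in R 4.3.3), with Benjamini-Hochberg adjustment over 8692 genes and a threshold of 0.05. SE is the absolute log2 fold change over the square root of F. Folds by the means divide mean CPM. The fits were also run on counts simulated from the means and dispersions of these data. Such counts cannot show where the model departs from the real ones. Replicates of a group differed by 6.18 to 15.0 times the counting variance, more than a library deposited again would, which does not show that they came from separate cultures.

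The members and lists were chosen with earlier results of these data known. The naming rule took every member (each library's value where called or at least 10 CPM), then up to 3 called genes a list by adjusted p. Other genes are said to be named after their values were seen. Motif letters were searched in RefSeq promoter windows (GRCm38.p6). No test was made over the members as a set. Other settings were RLE factors, library size alone, no low-count filter (at least 1 count), DESeq2 1.42.0, limma-voom (limma 3.58.1), a replicate block and leaving out each library. The results of some genes of the further lists are counted but not reported here by name.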

Additional observations from a re-analysis of the deposited data

How the results depend on the processing

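Of the 22 tested members, 12 kept direction and call under each of the 12 other settings (Fdps, tested only because of its gld counts, among them), and 240 of 264 comparisons with such a setting did so. The number of members called higher was 5, and 3 in limma-voom, which lost Hmgcs1 and Fabp5, and 3 to 5 with 1 library left out, lowest without gld 2. The number called lower was 5, and 4 to 6 with 1 library left out. The uncalled genes Msmo1, Srebf2 and Fasn changed sign and so have no direction here. With 1 library left out, the log2 fold change of Msmo1 was −0.24 (without gld 1) to 0.37, that of Srebf2 −0.065 (without wt 1; also −0.03 without wt 3 and without gld 1) to 0.27, and that of Fasn −0.37 (without gld 2; −0.32 without wt 3, −0.19 without gld 3) to 0.74. By library size alone Srebf2 was at −0.10 and Fasn at −0.056, and Fasn was at −0.20 in limma-voom and −0.16 with the replicate block. By library size alone the summed level of the sterol enzymes in wt was 659 CPM and that of the uptake and storage genes in gld 275 CPM, against 625 and 291 CPM, and the latter was 286 to 292 CPM with 1 library left out. The replicate numbers showed no pairing of the libraries in these data. Deviations of same-numbered libraries correlated at −0.02, −0.01 and −0.02 across genes, and no library correlated best with its own number. A pairing with a small effect could go unseen in such values. With the replicate block edgeR called 760 genes higher and 599 lower, against 847 and 668, of which 1335 were shared, and 9 members, Fabp5 being lost (adjusted p = 0.0717). Of the 24 called genes of the further lists, whose other settings were chosen after seeing the data, 14 kept their call under all 12 and the other 10 lost it in 41 of 288 comparisons. The cause of these changes was not tested. Sqle, Acaca, Fabp4, Lpin1, Dhcr7, Fasn and Fads1 rest on 2 to 151 counts over the 6 libraries. All of these but Fasn have shared ends. The parts of depth and of shared ends in their low counts were not tested.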
